A study of Mus musculus with 16 samples.

Results

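The T lineage transcription factors described here are 10 genes, Tcf7, Lef1, Gata3, Bcl11b, Ets1, Runx1, Runx3, Cbfb, Tox and Satb1. They were chosen by symbol and matched to the Ensembl gene IDs of the RNA-Seq count tables, and all 10 were found among 38293 genes. All 10 also passed the filter on low counts and were among the 13750 genes tested. The series compares 2 mouse lymphoid tumour lines. P6D4, labelled as SCID.adh murine thymic lymphoma, carries the stage label DN3, the thymocyte stage at which the T cell receptor beta chain is assembled. 70Z/3 is a pre-B lymphoblast line. Each line gave 3 RNA-Seq libraries and 1 Miz1 ChIP-Seq library. No treatment is labelled, each line stands for its lineage alone, and an effect of lineage cannot be told apart from any other difference between the lines. Whether the replicates came from separate cultures is not labelled. The spread that the p-values rest on is that between these libraries and may be technical. As these are bulk samples, fewer cells with a transcript and less of it per cell cannot be told apart.

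Early thymocytes commit to the T lineage under Notch signalling, which induces Tcf7. Its product TCF-1 acts with GATA3 to switch on Bcl11b, whose product closes off other fates. The RUNX proteins bind DNA together with their shared partner CBF-beta, and ETS1, TOX and SATB1 act in the same cells on receptor genes, lineage choice and chromatin folding. Several of these genes also act in B cells, among them Lef1, Ets1, Runx1 and Cbfb.

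The libraries held 48.3 to 54.8 M counts in genes for P6D4 and 45.5 to 48.9 M counts for 70Z/3. Of 10 DN3 thymocyte markers, 10 were higher in P6D4, and their summed level was 2625 to 2646 CPM in P6D4 and 146 to 152 CPM in 70Z/3. CPM here are counts scaled to library size after TMM adjustment. Of 10 pre-B markers, 10 were lower, with sums of 3.14 to 3.43 CPM in P6D4 and 2021 to 2073 CPM in 70Z/3. The markers of these lists stood on the side of each lineage. The lists were chosen with earlier results of these data known, so this is no independent check of the lines. Of all tested genes, 43.3% were called higher and 43.2% lower in P6D4, the background for all marker counts given here. The lists hold no CD4 or CD8 coreceptor gene. Cd8a and Cd8b1 were at 73.6 and 35.7 CPM in P6D4, against 0.0427 and 0.0350 CPM in 70Z/3. Cd4 was at 2.82 CPM in P6D4, against 0.128 CPM in 70Z/3. These coreceptor genes are named after their values were seen, and the stage label itself was not tested. Markers of NK cells summed to 403 to 504 CPM in P6D4 and 23.6 to 25.1 CPM in 70Z/3. Of 8 such markers 3 were higher, 2 were lower and 3 had too few counts to test. Klrd1 and Klrk1 were at 0 in P6D4, and Ncr1 and Prf1 were at 0 in 70Z/3. Markers of myeloid cells summed to 31.0 to 37.8 CPM in P6D4 and 24.2 to 26.3 CPM in 70Z/3. Of 10, 2 were higher, 3 were lower and 5 were too low to test, and Cebpa was at 0 in both lines. Erythroid markers summed to 4.24 to 5.92 CPM in P6D4 and 1.18 to 1.35 CPM in 70Z/3. Of 6, 1 was higher, 2 were lower and 3 were too low to test, with Alas2 at 0 in both. The part of other cell types in the results below was not tested.

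The 10 factors did not move as a block. Bcl11b, Gata3, Tcf7 and Satb1 were far higher in P6D4, Runx3 and Lef1 were far lower, and Tox, Ets1, Runx1 and Cbfb differed by less than 2-fold. Against no change, 7 factors were higher and 3 lower in P6D4 (edgeR quasi-likelihood test, adjusted p under 0.05). The lines differ so widely that this says little: 86.5% of all tested genes were called, 43.3% as higher and 43.2% as lower. In all 10 factors the libraries of the 2 lines did not overlap, as in 87.4% of tested genes. Against a 2-fold difference, 4 factors were higher and 2 lower. The background there was 35.2% in all, with 16.6% of tested genes higher and 18.6% lower. The median log2 fold change was 0.56 over the 10 factors and 0.01 over all tested genes.

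**Figure D1:**
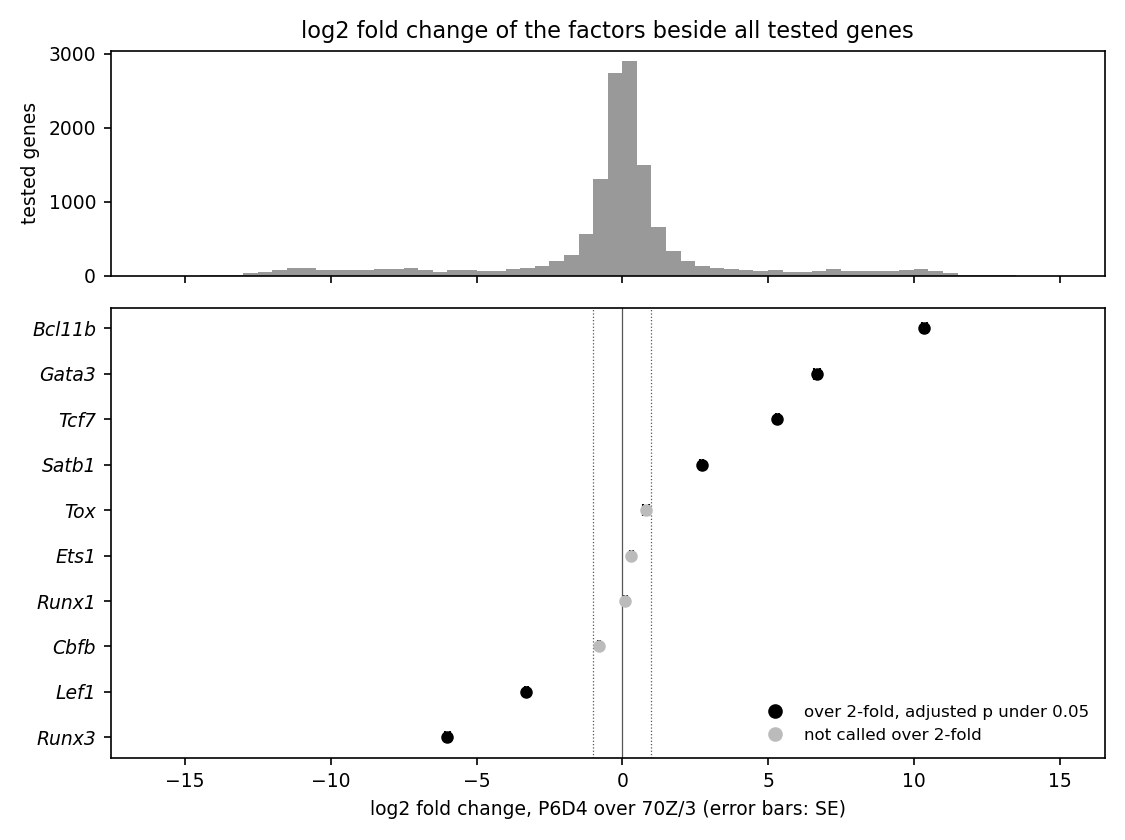
The upper panel counts all 13750 tested genes by log2 fold change (P6D4 over 70Z/3, bins of 0.5). The lower panel gives each factor with its SE, black where the difference was called over 2-fold. Bcl11b lies farthest to the right at 10.36 and Runx3 farthest to the left at -6.01, while Tox, Ets1, Runx1 and Cbfb lie inside the dotted lines at 1 and -1.

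Tcf7 and Lef1, which encode the 2 TCF family members of lymphocytes, went in opposite directions. Both proteins bind the same kind of DNA site through an HMG box and take beta-catenin or Groucho corepressors as partners. Tcf7 was at 1358, 1300.0 and 1257 CPM in the P6D4 libraries, against 32.7, 32.0 and 33.3 CPM in the 70Z/3 libraries. It was high in every P6D4 library, and the lines were apart by a wide margin. On the log2 scale the difference was 5.32 ± 0.04 (SE; adjusted p = 2.84e-18 in edgeR), 847th from the top of all tested genes. Each SE here is the log2 fold change over the root of its F statistic, which understates counting error where counts are few. Lef1 was at 60.8, 64.1 and 56.4 CPM in P6D4, against 599, 593 and 580.0 CPM in 70Z/3. The B lineage line thus had the higher Lef1 level in every library. The log2 fold change of Lef1 was -3.29 ± 0.05 (SE; edgeR adjusted p = 2.26e-16).

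Neither line was without either gene: the lower line still had 4576 counts of Tcf7 and 9498 counts of Lef1 in all. Within each library, Lef1 made up 4.43 ± 0.236% of the reads of the pair in P6D4 and 94.8 ± 0.167% in 70Z/3 (SD, n = 3 each). With 3 against 3 libraries the smallest p of an exact permutation test is 0.1, which this share reached (two-sided). The share does not depend on the scaling between libraries, but it is not corrected for transcript length and does not say which gene had more molecules. The summed level of the pair was 1366 ± 52.5 CPM in P6D4, against 623 ± 9.10 CPM in 70Z/3 (SD, n = 3 each). This sum is not corrected for length either, and length does not cancel between the lines, as the mix of the pair differed. Tcf7l1, a TCF family repressor best known from stem cells, was at 3.78 ± 0.224 CPM in P6D4, against 0.0504 ± 0.0257 CPM in 70Z/3 (SD, n = 3), with 7 counts in all in 70Z/3. Tcf7l2 had 1 count in P6D4 and 2 in 70Z/3 over all libraries and was not tested.

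**Figure D2:**
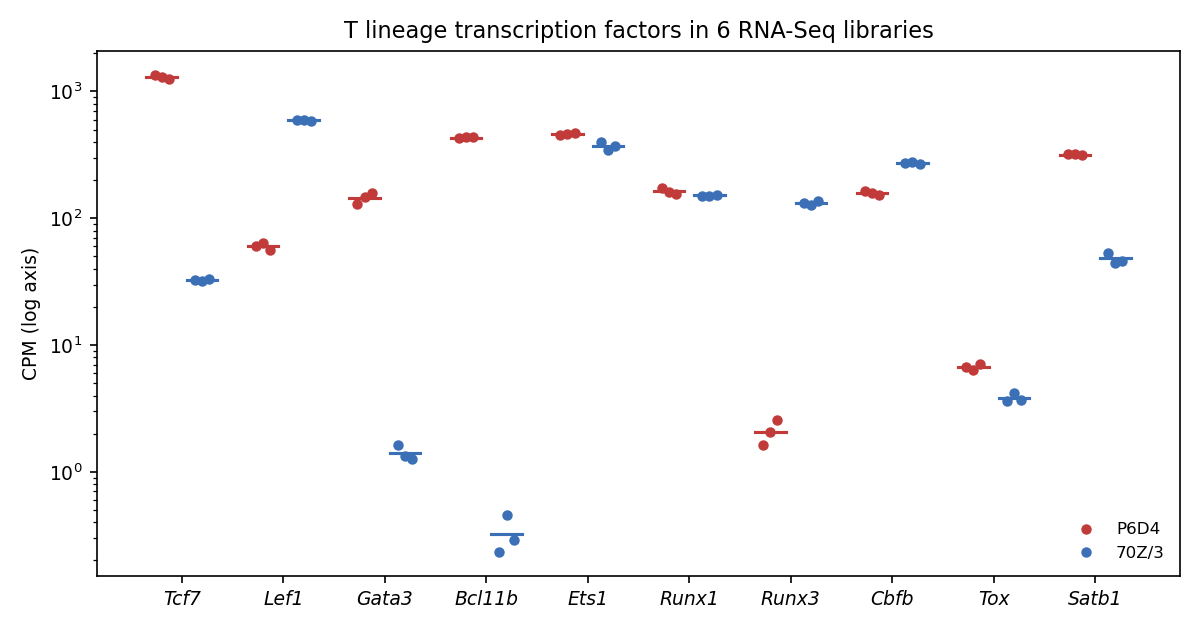
Each point is 1 RNA-Seq library and each bar the mean of 3 libraries, in CPM on a log axis, with P6D4 in red at the left of each gene and 70Z/3 in blue at its right. Tcf7, Gata3, Bcl11b and Satb1 are high in P6D4, Lef1 and Runx3 are high in 70Z/3, and the points of Ets1, Runx1, Cbfb and Tox lie close together.

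Gata3 and Bcl11b, the factors that act next in T lineage commitment, were close to absent from 70Z/3. Gata3 encodes a zinc finger factor needed from the earliest thymocyte stages. It was at 129.7, 148 and 157 CPM in P6D4, against 1.62, 1.33 and 1.27 CPM in 70Z/3. All P6D4 libraries were high, and all 70Z/3 libraries were low. The difference was 6.69 ± 0.10 on the log2 scale (SE; edgeR adjusted p = 4.53e-16). Gata3 had a coefficient of variation of 9.57% across the P6D4 libraries. Runx3 had the largest there, 21.8%, and the other factors 1.14 to 6.34%. Gata2, an erythroid and progenitor paralog, had no count in any library. Gata1 had 23 counts in P6D4 and 18 in 70Z/3 over all libraries, too few to test.

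Bcl11b had the largest difference of the 10 factors. Its zinc finger product is required for T lineage commitment. Levels were 426, 434 and 439 CPM in P6D4, against 0.234, 0.456 and 0.289 CPM in 70Z/3, where the 3 libraries held 11, 22 and 13 counts. The lines were fully separated, and the low line lay near the bottom of what these libraries measure. The difference of 10.36 ± 0.08 on the log2 scale (SE; adjusted p = 2.08e-18 in edgeR) was 169th from the top of 13750 genes. Its paralog Bcl11a, a factor of B cells and progenitors, was the mirror image. Bcl11a was at 0.0490 ± 0.0456 CPM in P6D4, with 8 counts in all, and at 200.3 ± 9.10 CPM in 70Z/3 (SD, n = 3). Of the reads of this pair, Bcl11b made up at least 99.98% in each P6D4 library and 0.123 to 0.219% in the 70Z/3 libraries. The RefSeq promoter window of Bcl11b (GRCm38.p6, chr12:108003365-108003664, minus strand, 250 bases before to 50 after the start site) is shown because no factor differed more. Capitals mark CTTTGA, the core of the TCF/LEF site, which occurs in it in 1 copy, 89 bases before the start site.
Bcl11b: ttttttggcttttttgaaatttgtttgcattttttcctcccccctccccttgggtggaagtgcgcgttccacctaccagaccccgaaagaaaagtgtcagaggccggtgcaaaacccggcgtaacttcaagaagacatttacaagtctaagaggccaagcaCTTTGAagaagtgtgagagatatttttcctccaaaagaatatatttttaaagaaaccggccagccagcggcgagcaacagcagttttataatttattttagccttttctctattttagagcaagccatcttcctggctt
That motif was searched on both strands and lies in 16.0% of 32851 RefSeq windows of the same length. A match is a run of letters, not a measured binding site. The window had 43.0% G and C, against a median of 52.7% over all windows.

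The RUNX genes and their partner Cbfb showed a shift in composition. Runx1, which is needed for the emergence of blood stem cells and acts in both lymphoid lineages, was at 172, 162 and 155 CPM in P6D4, against 151, 151 and 152 CPM in 70Z/3. The lines lay close, although no P6D4 library was as low as a 70Z/3 library. A difference of 0.11 ± 0.04 on the log2 scale (SE; adjusted p = 0.0195 in edgeR) was past the threshold, and 5 of 12 alternative settings lost this call. They were RLE scaling (adjusted p = 0.0513), DESeq2 (0.0666) and edgeR without P6D4 replicate 1 (0.0787), without 70Z/3 replicate 2 (0.0700) and without 70Z/3 replicate 3 (0.0615), over a range of 0.00162 to 0.0787. Runx3, known from CD8 T cells and NK cells and also expressed in B cells, was nearly missing from P6D4. Its levels were 1.64, 2.05 and 2.54 CPM in P6D4, against 133, 128 and 138 CPM in 70Z/3. The P6D4 libraries held 91, 108 and 124 counts and were low without exception. The log2 fold change of Runx3 was -6.01 ± 0.08 (SE; edgeR adjusted p = 2.6e-16). Runx3 made up 1.27 ± 0.334% of the reads of Runx1 and Runx3 in P6D4 and 46.7 ± 0.842% in 70Z/3 (SD, n = 3 each; exact permutation p = 0.1, the smallest possible, two-sided). Runx2, the bone factor of the family, had 12 counts in P6D4 and 10 in 70Z/3 over all libraries and was not tested.

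Cbfb, which encodes the non-DNA-binding partner of all RUNX proteins, was lower in P6D4. It was at 163, 157 and 152 CPM in P6D4, against 271, 277 and 268 CPM in 70Z/3, and the lines did not overlap. Its difference was -0.79 ± 0.04 on the log2 scale (SE; adjusted p = 8.53e-11 in edgeR), and the difference was not called over 2-fold. Summed over Runx1 and Runx3, the RUNX level was 165 ± 7.97 CPM in P6D4, against 284 ± 5.78 CPM in 70Z/3 (SD, n = 3 each), a ratio of 0.581 beside 0.579 for Cbfb. The ratio of the RUNX sum to Cbfb was 1.06, 1.04 and 1.04 in the P6D4 libraries and 1.05, 1.01 and 1.08 in the 70Z/3 libraries. The ranges overlapped, with means of 1.05 ± 0.0120 and 1.05 ± 0.0382 in P6D4 and 70Z/3 (SD, n = 3 each). This sum and its ratio to Cbfb were formed after the values were seen, so equality of the ratio between the lines was not tested. As counts are not divided by transcript length, a ratio near 1 does not mean equal numbers of molecules. The share of Runx3 in the sum also differed between the lines, so length does not cancel between them. A length difference between Runx1 and Runx3 would change the 0.581 and the likeness of the ratios.

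**Figure D3:**
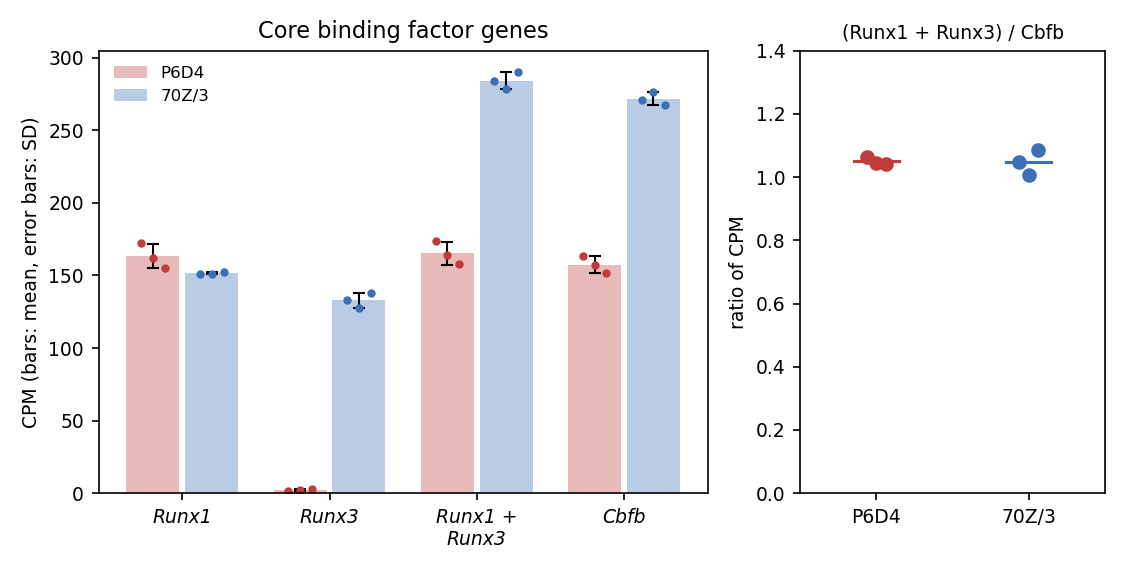
The left panel gives CPM of Runx1, Runx3, their sum and Cbfb, with bars for the mean of 3 libraries, error bars for the SD and points for libraries. The right panel gives the RUNX sum over Cbfb in each library, not corrected for transcript length. Runx3 is nearly absent from P6D4, the sum and Cbfb are both lower in P6D4, and the P6D4 ratios, 1.04 to 1.06, lie inside the 70Z/3 range of 1.01 to 1.08.

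The most upstream RefSeq promoter windows of Runx1 and Runx3 and the window of Runx2 are shown because these genes share a sequence in them. Capitals mark the RUNX core TGTGGT on either strand, which here reads ACCACA, and 1 CTTTGA in Runx2. The windows are 300 bases of GRCm38.p6, chr16:92826025-92826324 on the minus strand for Runx1, chr4:135120395-135120694 on the plus strand for Runx3 and chr17:44814578-44814877 on the minus strand for Runx2.
Runx1: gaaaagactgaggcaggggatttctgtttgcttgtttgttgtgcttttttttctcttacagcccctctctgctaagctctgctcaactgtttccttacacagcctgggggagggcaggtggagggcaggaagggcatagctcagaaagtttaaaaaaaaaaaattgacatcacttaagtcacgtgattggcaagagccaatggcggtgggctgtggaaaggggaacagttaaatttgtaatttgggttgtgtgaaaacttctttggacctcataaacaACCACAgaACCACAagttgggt
Runx3: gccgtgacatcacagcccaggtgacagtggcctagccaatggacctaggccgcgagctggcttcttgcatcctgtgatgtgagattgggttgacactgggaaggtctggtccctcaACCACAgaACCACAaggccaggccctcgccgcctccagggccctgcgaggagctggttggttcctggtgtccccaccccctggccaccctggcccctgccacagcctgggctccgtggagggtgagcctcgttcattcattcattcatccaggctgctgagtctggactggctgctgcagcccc
Runx2: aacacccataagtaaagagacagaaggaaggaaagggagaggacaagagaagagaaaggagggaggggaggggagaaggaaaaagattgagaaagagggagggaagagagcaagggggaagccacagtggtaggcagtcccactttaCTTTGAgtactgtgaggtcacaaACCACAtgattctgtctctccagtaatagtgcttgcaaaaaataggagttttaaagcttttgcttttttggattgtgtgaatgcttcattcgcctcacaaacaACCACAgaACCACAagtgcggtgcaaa
In all 3 windows a pair of cores stood in tandem with 2 bases between them. The first core of the pair began 29 bases after the start site in Runx1, 134 bases before it in Runx3 and 24 bases after it in Runx2. The tandem pattern (TGTGGTNNTGTGGT, both strands) was found in 7 of 32851 windows, or 0.0213%, and a lone or repeated core TGTGGT in 16.8%. The other 4 windows belong to Olfr24 and the long noncoding RNA genes Gm12236, Gm15462 and Gm16225. The window of Gm16225 shares 232 bases with that of Runx3, so these are not separate occurrences. The pattern was searched for after the windows had been read. Runx1 and Runx3 share it although Runx1 was nearly level between the lines and Runx3 was not, and the count tables do not tell the start sites of a gene apart. Over the 18 windows of the 8 factors that have one, the RUNX core lay in 2, CTTTGA in 2, the GATA core AGATAA in 1 and the ETS core CGGAAG in 2. Among all windows the shares for AGATAA and CGGAAG were 11.2% and 16.9%. No match overlapped another.

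Ets1, Tox and Satb1 are the remaining factors, and of these Satb1 alone was called over 2-fold. Ets1, the founding ETS factor, needed in T, NK and B cells, was at 456, 465 and 467 CPM in P6D4, against 402, 348 and 373 CPM in 70Z/3. The lines were near to each other, and the 70Z/3 libraries varied more. That left a small difference, 0.31 ± 0.05 on the log2 scale (SE; adjusted p = 2.32e-05 in edgeR). Of the other ETS genes tested, Ets2, Fli1 and Elf1 differed more than Ets1, and Elf4 and Gabpa were not called. Ets2, a close paralog, was at 85.2 ± 6.84 CPM in P6D4, against 0.0778 ± 0.0420 CPM in 70Z/3 (SD, n = 3), with 11 counts in all in 70Z/3. Fli1, a factor of blood stem cells and megakaryocytes, was at 23.5 ± 0.680 CPM in P6D4, against 154 ± 8.61 CPM in 70Z/3 (SD, n = 3). Elf1 was lower in P6D4 by -1.32 ± 0.04 (SE) on the log2 scale. Elf4 was at 171 CPM in P6D4, against 167 CPM in 70Z/3 (edgeR adjusted p = 0.356), and Gabpa at 144 and 136 CPM in P6D4 and 70Z/3 (edgeR adjusted p = 0.054). Erg had 2 counts in P6D4 and 20 in 70Z/3, a level 11.2 times higher in 70Z/3 with a 95% counting interval of 2.72 to 98.7.

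Tox, an HMG box factor of CD4 T cell development and innate lymphoid cells, was at a low level in both lines. It was at 6.74, 6.41 and 7.08 CPM in P6D4, against 3.62, 4.16 and 3.69 CPM in 70Z/3. The P6D4 libraries were all above the 70Z/3 libraries by a narrow gap. The log2 fold change of Tox was 0.82 ± 0.09 (SE; edgeR adjusted p = 1.7e-06). The paralogs Tox2 and Tox3 were at or near 0, with 1 count of Tox2 in P6D4, 2 in 70Z/3 and no count of Tox3. Tox4, which is broadly expressed, was at 78.5 ± 2.44 CPM in P6D4, against 104 ± 1.95 CPM in 70Z/3 (SD, n = 3).

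Satb1, which organises chromatin loops in thymocytes, was at 320.3, 320.2 and 314 CPM in P6D4, against 53.5, 44.6 and 46.4 CPM in 70Z/3. The P6D4 libraries agreed to within a coefficient of variation of 1.14% and stood well above 70Z/3. Satb1 differed by 2.72 ± 0.06 on the log2 scale (SE; adjusted p = 1.37e-14 in edgeR). Of the 15 paralogs of the factors examined, 7 had too few counts to test. Against no change, 2 were higher in P6D4, 4 were lower and 2 were not called. That makes 6 of 8 called, beside 86.5% of all tested genes. Over 2-fold, 2 were higher and 3 lower, beside 16.6% and 18.6% of all tested genes.

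**Figure D4:**
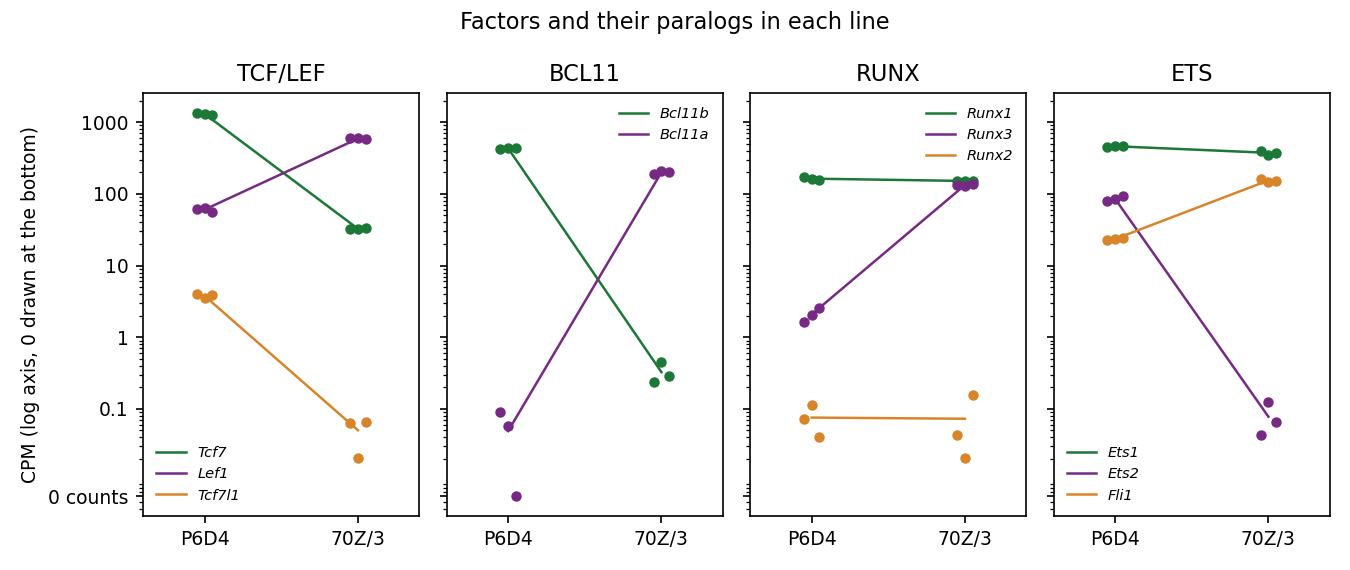
Each panel is 1 gene family, with P6D4 at the left and 70Z/3 at the right, points for libraries and lines between the means, in CPM on a log axis where libraries without a count are drawn at the bottom. The lines of Tcf7 and Lef1 and of Bcl11b and Bcl11a cross, Runx3 and Bcl11a are low in P6D4, and Ets2 is near the bottom in 70Z/3.

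Of 20 genes for cofactors of these proteins, 19 could be tested, and 14 of those were not called over 2-fold. Of 19 tested, 8 were higher, 9 lower and 2 not called against no change. Over 2-fold, 2 were higher and 3 lower, beside the 16.6% and 18.6% of all tested genes, with a median log2 fold change of 0.02. Ctnnb1, which encodes beta-catenin, was at 529.8 CPM in P6D4, against 524 CPM in 70Z/3 (edgeR adjusted p = 0.627). Ctnnb1 and the histone deacetylase gene Hdac2, at 189 CPM in P6D4, against 186 CPM in 70Z/3, were the 2 not called, both named after their values were seen. Aes, a short Groucho family gene whose product lacks the WD40 repeats, was at 345 ± 13.2 CPM in P6D4, against 0.248 ± 0.129 CPM in 70Z/3 (SD, n = 3). Tle2, another Groucho corepressor gene, was at 26.5 ± 0.0991 CPM in P6D4, against 0.156 ± 0.0579 CPM in 70Z/3 (SD, n = 3). Pygo2, a beta-catenin coactivator gene, had a log2 fold change of 0.63 ± 0.04 (SE). Tle4 was lower by -2.00 ± 0.05 (SE), and Tle1 was without a count in P6D4, against 1.78 CPM in 70Z/3, which makes it at least 28.9-fold lower against a floor of 3 counts in the smallest library. Ctnnbip1, an inhibitor of the contact between beta-catenin and TCF proteins, had 8 counts in P6D4 in all and 19.8 ± 2.28 CPM in 70Z/3 (SD, n = 3).

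Of 25 T cell genes taken as targets of these factors, 23 could be tested. Of these, 20 were higher in P6D4 and 3 were lower, beside 43.3% and 43.2% of all tested genes. This list, like the other related lists, was chosen with earlier results of these data known, so its distance from the background is no independent result. Control of these genes by the factors was not tested. Over 2-fold, 19 were higher and 2 lower, beside 16.6% and 18.6%. The list's median log2 fold change was 5.31, also with the gene at 0 taken at its bound, beside 0.01 over all tested genes. Thy1, a surface marker of T cells, was higher by 11.08 ± 0.09 and Cd3e, a subunit of the receptor complex, by 10.87 ± 0.07 (SE, log2 scale). In 70Z/3 they had 43 and 28 counts in all. Thy1, Cd3e and several others of this list are also DN3 markers given above, so the list is not separate from those markers. Trbc2, a receptor beta chain constant region, was at least 165-fold higher than in 70Z/3, where it had no count. Trbc2 has a near-identical copy, Trbc1, and reads that fit both went uncounted, so its level is uncertain. The lower genes were the inhibitory receptor gene Cd5, the costimulatory receptor gene Cd28 and the kinase gene Zap70. Cd28 was at 33.9 ± 4.84 CPM in P6D4, against 219 ± 5.03 CPM in 70Z/3 (SD, n = 3), or -2.69 ± 0.07 (SE) on the log2 scale. Cd5 and Zap70 differed by -4.40 ± 0.09 and -0.82 ± 0.04 (SE). Trac, the constant region of the receptor alpha chain, had 2 counts in P6D4 and 4 in 70Z/3 and was not tested.

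Of 11 genes that commonly respond to TCF and beta-catenin, 7 could be tested, with 4 higher and 3 lower in P6D4 and a median log2 fold change of 1.84. Against no change, that split is near the 43.3% higher and 43.2% lower of all tested genes. Over 2-fold, 4 were higher and 2 lower, beside 16.6% and 18.6% of all tested genes. Axin2, a scaffold of the beta-catenin destruction complex, was at 12.1 ± 0.976 CPM in P6D4, against 2.84 ± 0.284 CPM in 70Z/3 (SD, n = 3). The ubiquitin ligase genes Rnf43 and Znrf3, which remove Wnt receptors, were higher by 3.14 ± 0.20 and 2.23 ± 0.06 (SE, log2 scale). Lgr5, a receptor for R-spondins, had just 3 counts over the P6D4 libraries, against 61.3 CPM in 70Z/3, a level 3204 times higher there with a 95% counting interval of 1096 to 15542. Tnfrsf19 and Ccnd1 were lower by -3.80 ± 0.06 and -0.67 ± 0.05 (SE).

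Of 14 other factors of T and innate lymphoid cells, 11 could be tested, 7 were higher and 4 lower in P6D4, with a median log2 fold change of 2.80. Of all tested genes 86.5% were called, 43.3% as higher and 43.2% as lower. Over 2-fold, 7 of these factors were higher and 3 lower, beside 16.6% and 18.6% of all tested genes. Zbtb16, the factor of innate-like T cells, had no count in 70Z/3 and was at least 136-fold higher in P6D4. Rora, a nuclear receptor of innate lymphoid cells, was at 141 ± 16.8 CPM in P6D4, against 0.0567 ± 0.0525 CPM in 70Z/3 (SD, n = 3). Nfil3, a bZIP factor needed for NK cells, was higher by 9.43 ± 0.20 (SE, log2 scale), with 6 counts in all in 70Z/3. Of the progenitor factors in the list, Hhex and Lyl1 were lower by -11.16 ± 0.11 and -10.12 ± 0.12 (SE). They had 6 and 15 counts in all in P6D4. With so few counts in the lower line, the SE of Nfil3, Hhex and Lyl1 understate the counting error. Lmo2 had 1 count in P6D4, with the level 10593 times higher in 70Z/3 and a 95% counting interval of 1901 to 418456. The NK cell marker sum given above was also higher in P6D4 and came mostly from 2 of its 8 genes, Gzma at 295 CPM and Il2rb at 154 CPM in P6D4. Klrd1 was at 0 in P6D4 and at 21.0 CPM in 70Z/3, and Klrb1c was also lower in P6D4. The part of such cells in these values was not tested.

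**Figure D5:**
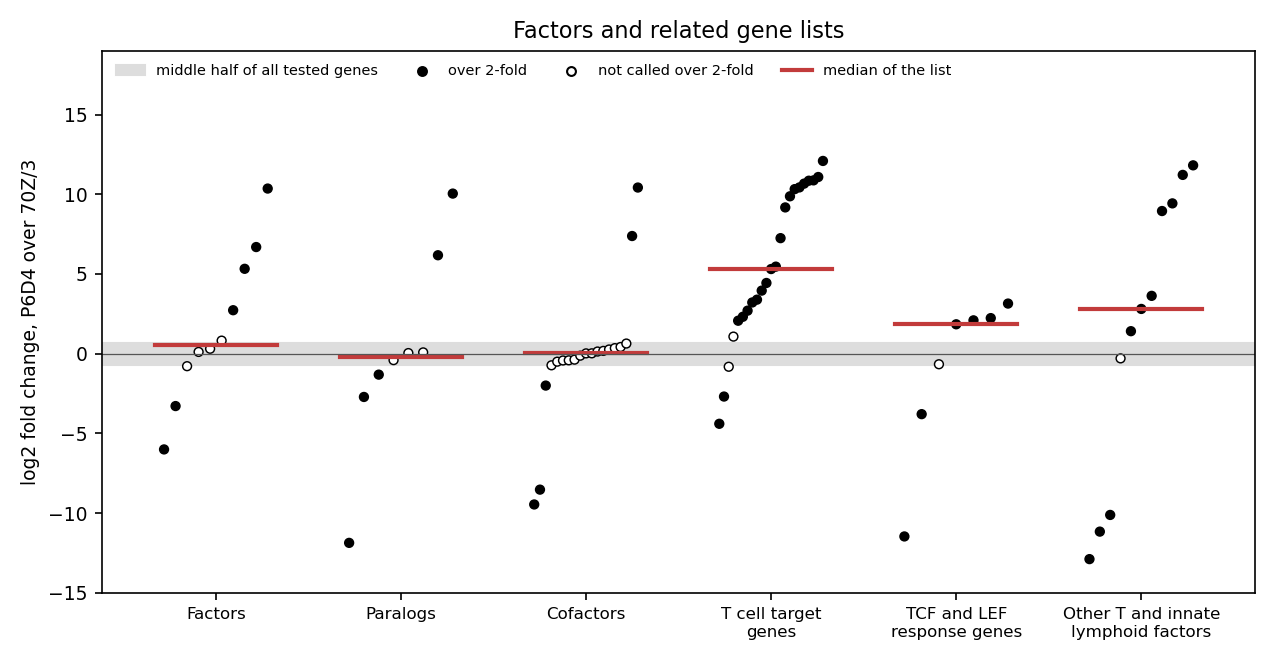
Each point is 1 tested gene, placed by its log2 fold change (P6D4 over 70Z/3), filled where the difference was called over 2-fold, with a red bar at the median of each list and a grey band between the 25 and 75% points of all tested genes. T cell target genes lie mostly above the band, cofactors mostly inside it, and the factors and their paralogs on both sides. Genes at 0 in a line are plotted at their fitted value, which is no bound.

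The Miz1 peak lists can say little about the 10 factors. Miz1, encoded by Zbtb17, is the zinc finger factor mapped in the study, with 21629 peaks in P6D4 and 10462 in 70Z/3. There was 1 ChIP library per line, so no test was made. None of the 10 factors had a summit closer than 1 kb to its gene ends or annotated start sites in either list. At that distance 1.17% of 21887 coding genes had one in P6D4 and 3.35% in 70Z/3. With shares this low, none among 10 factors does not set them apart from other genes. The P6D4 list held 1 peak inside a factor, at chr3:131209784-131210164 (mm10) within Lef1, 14.32 kb from the nearest end or start site. Its fold over background, the authors' own value, was 7.37, above 65.0% of that list. Within 50 kb of the genes, the P6D4 list held 4 peaks around Runx3, with folds of 7.94 to 10.00, and 5 past the 5' end of Satb1, with folds of 5.18 to 10.12. It also held 1 peak near Cbfb, 3.23 kb past its end, and 1 near Runx1, 39.41 kb from it. The 70Z/3 list held 1 peak near Runx3 with a fold of 12.73, 31.54 kb from the gene, and 1 each near Tox and Satb1. The share of all coding genes with a peak within 50 kb was not taken. These counts therefore cannot be set against other genes. Of the ChIP tags, 97.0% in P6D4 and 85.0% in 70Z/3 were duplicates. In P6D4 2.07 M tags were kept and in 70Z/3 4.48 M, so weak sites could be missed at this depth. The P6D4 list held more peaks although fewer tags were kept. The peaks named here had summit pileups of 7 to 14 tags in P6D4 and 10 to 20 in 70Z/3, and whether any was spurious was not tested. Several peaks at Runx3 and Satb1 in P6D4 lay close together and may not be separate sites.

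Whole chromosomes showed little net difference. The median log2 fold change over the other tested genes of each factor's chromosome lay between -0.07 (chromosome 9, Ets1) and 0.16 (chromosome 11, Tcf7). For Runx1 on chromosome 16 it was 0.08, close to the factor's own 0.11. RefSeq places other genes inside or across the spans of Tcf7, Gata3, Runx1, Cbfb and Tox. Skp1a, which meets the span of Tcf7, was at 489.5 CPM in P6D4, against 162 CPM in 70Z/3. 9230102O04Rik, which meets Gata3, had 73, 58 and 53 counts in P6D4 and none in 70Z/3. The kit was stranded, but how the counter treated strand is not stated in the labels, and reads of such neighbours may be shared, although reads called ambiguous by the counter made up at most 0.424% of the reads counted, ambiguous or in no gene.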

How the data were processed

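RNA-Seq of 3 P6D4 and 3 70Z/3 libraries was used, with groups and replicate numbers from the sample titles. The deposited files hold raw counts per Ensembl gene. TopHat2 2.0.10, Bowtie2 2.10, HTSeq, SAMtools, bedtools and the builds mm10 and GRCm38 are listed, per the submitters' processing notes. Reads were aligned and counted by the authors, and alignments that were not unique went uncounted, as the 5 summary lines of each file show. Those lines were left out. Symbols were found for 36345 of 38293 genes.

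Miz1 peaks were called by the authors with MACS 2.0.10.20120913 at a q-value of 0.01, on 1 library per line, per the file headers. Per the file headers, the deposited signal is the tag pileup at the summit, the fold is the ratio of pileup over local background. The deposited -log10 p and -log10 q values, from the authors' MACS run, were found by column position, as their names are damaged. The last was read with commas as decimal points. The samples of histone marks and input were not used here.

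Counts were tested on all genes with edgeR 4.0.16 (filterByExpr, TMM, quasi-likelihood test, cell line as the only term, Benjamini-Hochberg adjustment, threshold 0.05) and against a 2-fold difference with glmTreat. A gene at 0 in a line was given a bound against 3 counts in the smallest library, and genes with 1 to 3 counts an exact 95% interval. Both cover counting error only. Alternatives used limma 3.58.1 and DESeq2 1.42.0 under R 4.3.3. Libraries of a line were not identical and differed beyond counting noise (chi-square over its degrees of freedom 2.46 to 13.8). Gene positions and promoter windows are from RefSeq (GRCm38.p6). Transcript lengths were not used, so shares and ratios of genes were compared between lines, and levels of different genes were not ranked. In a sum of genes whose mix differs between the lines, length does not cancel.

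The 10 factors, the lists and the rule for named genes were chosen with earlier results of these data known. The rule takes all factors and paralogs and the 3 largest rises and falls among called genes of each other list, ranked by fitted log2 fold change, and the genes with profiles nearest to the most extreme factors. Genes outside it are marked as named after their values were seen, or are given because they overlap a factor or have too low counts. 1 gene is not reported here.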

Additional observations from a re-analysis of the deposited data

How the results depend on the processing

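Over 12 alternative fits (RLE and upper quartile scaling, no filter, DESeq2, limma-voom, a replicate block and each library left out), no log2 fold change of the 10 factors turned its sign. The calls over 2-fold, 4 higher and 2 lower, had the same counts in each. Against no change, 6 or 7 factors were higher and 3 lower, and the call that was lost in 5 settings was that of Runx1, given above. Among the paralogs, 4 in place of 2 were called higher with upper quartile scaling, which moved the median of all genes to 0.06. With limma-voom, without P6D4 replicate 3 and without 70Z/3 replicate 1 it was 3. Without the filter, 5 in place of 4 paralogs were lower, and 8 in place of 7 other T and innate lymphoid factors were higher. With upper quartile scaling, 10 in place of 8 cofactors were higher. The cause of these changes was not tested. With summits up to 5 kb from a gene end, 1 factor, Cbfb, had a Miz1 peak in the P6D4 list in place of 0, where 4.4% of coding genes had one. Other peak settings gave 0 factors in either list. Length-corrected shares were not run, as no transcript lengths were used.

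The replicate numbers carry no stated pairing, and same-numbered libraries did not deviate together (correlations of -0.0554, -0.0462 and 0.00835). With the replicate block, 7 factors were higher and 3 lower, and 5867 of all genes were higher and 5847 lower, in place of 5955 and 5936.

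Depth limits the lower line most: Bcl11b in 70Z/3 rests on 46 counts in all, Gata3 in 70Z/3 on 197 and Runx3 in P6D4 on 323.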

Other observations

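The genes with profiles most like those of the extreme factors were sought over the 6 libraries by Euclidean distance of log2 CPM. For Bcl11b they were Chdh, which encodes choline dehydrogenase, at a distance of 0.546, and the Notch receptor gene Notch3 at 0.640. Chdh was at 413 CPM in P6D4, against 0.278 CPM in 70Z/3. For Runx3 they were the B cell receptor inhibitor gene Cd22 at 0.445 and Arsb, which encodes a lysosomal sulfatase, at 0.795. Cd22 was at 2.29 CPM in P6D4, against 142 CPM in 70Z/3. With 2 lines, likeness of this kind rests on 1 difference in level.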
